A study of Homo sapiens with 63 samples.

Results

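A set of 9 genes of NADPH supply and of quinone and carbonyl reduction were followed through the study: PGD, TKT, TALDO1, ME1, IDH1, NQO1, AKR1B10, UGDH and OSGIN1. They were taken from a list of symbols with no threshold on their values, and are 9 of the 58336 genes in the deposited count table. The list was chosen with earlier results of these data known. The shares of all genes printed beside its counts are therefore a description and not a test of the list. RNA was sequenced from HEK293T, a human cell line of embryonic kidney origin, made to express the Halo protein tag. The groups were ibufenac or ibuprofen given as a photocaged form, as a probe form or as a bolus, and DMSO, the solvent, each sampled at 6, 12 and 18 h with 3 replicates, which makes 7 arms, 21 groups and 63 libraries. Ibuprofen carries an α-methyl group that ibufenac lacks. By the design text, precursors of the acyl glucuronides that bind Halo were applied at 10 µM for 2 h, unbound precursor was washed out, and light (365 nm, 5 mW/cm2, 3 min) set the glucuronide free. What distinguishes the photocaged form from the probe form, which arms were lit, and the dose of the bolus are not given in the labels. Nor do the labels say that replicates were separate cultures, so the p-values measure the spread between these libraries, which may be technical.

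Cells spend NADPH on reducing glutathione, thioredoxin and lipids, and they regain it through the oxidative branch of the pentose phosphate pathway, malic enzyme and isocitrate dehydrogenase. NQO1 uses NADH or NADPH to reduce quinones in a single step of both electrons, and AKR1B10 reduces aldehydes and ketones. UGDH makes UDP-glucuronate, the donor that UDP-glucuronosyltransferases use to form acyl glucuronides in the liver. Many of these genes are known targets of NRF2, a transcription factor that is released when reactive compounds modify its inhibitor KEAP1.

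The median library held 19.6 M counts, and the smallest and largest held 12.1 and 38.4 M. Of 8 markers of the HEK293 line, 7 averaged at least 1 CPM (counts scaled to a fixed library total) and PAX2, a kidney transcription factor, averaged 0.149 CPM. Markers of hepatocytes, blood cells and fibroblasts reached 1 CPM in 1 of 7, 0 of 4 and 1 of 4 genes (ALB at 1.06 CPM and COL1A1 at 3.18 CPM). A few features of the libraries bear on what follows. The slope of a library's log2 levels on the GC content of its transcripts ran from -0.274 to 0.201 per 10 percentage points. DMSO 18 h replicate 3 and ibufenac bolus 18 h replicate 3 were taken in earlier work on these data to stand apart from their groups. By the root mean square log2 difference from the other libraries of the group they ranked 6 and 8 of 63, at 0.764 and 0.742. Results at 18 h that rest on them are given with and without them. Reads of UGDH and IDH1 cannot be separated here from those of their antisense genes UGDH-AS1 (mean 155.24 counts) and IDH1-AS1 (mean 4.84 counts), because the counting strand is not given. OSGIN1 overlaps AC009119.2 (mean 8.69 counts) on the same strand, and how shared reads were divided is not given. AKR1B10 has the close paralog AKR1B15, at 0.0126 CPM.

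Compared per length, in deposited FPKM averaged over all libraries, TKT was the most abundant of the genes at 110 FPKM (range 71.3 to 157). TKT encodes transketolase of the non-oxidative pentose phosphate branch. PGD, the phosphogluconate dehydrogenase that yields NADPH in the oxidative branch, averaged 57.8 FPKM (48.6 to 68.3), and TALDO1, transaldolase of the non-oxidative branch, 54.0 FPKM (40.0 to 63.7), with overlapping ranges. IDH1, the cytosolic isocitrate dehydrogenase that makes NADPH, averaged 13.3 FPKM (6.68 to 19.7). UGDH averaged 6.97 FPKM (4.49 to 10.9), ME1, the cytosolic malic enzyme, 4.79 FPKM (3.0 to 7.65), and NQO1 2.9 FPKM (0.842 to 6.36). These 4 ranges overlap from each to the next. OSGIN1, an oxidative stress induced growth inhibitor, averaged 0.456 FPKM (0.061 to 1.2) and AKR1B10 0.164 FPKM (0 to 0.903). Below, levels are CPM with edgeR's library normalization and are compared only within a gene. Across the 21 groups ordered by mean level, neighbouring groups overlapped in all 20 pairs for PGD, TKT, ME1, UGDH, OSGIN1 and AKR1B10, and in all but 1 of 20 for TALDO1, IDH1 and NQO1.

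Promoters of 4 of the genes are shown because 3 of them hold letters that match the core motif known for NRF2. The motif searched was TGACNNNGC on either strand, within the 250 bases before a transcription start of the gene (RefSeq, GRCh38.p14). By GENCODE 29 bounds, the windows of PGD, IDH1, NQO1, UGDH and OSGIN1 lie inside the gene, downstream of its outermost start. The motif was found in 3830 of 35116 promoters (10.9%). Among the genes described here, 8 have a promoter entry in RefSeq's table, and AKR1B10 does not. A match stood in PGD (GCAATGTCA), ME1 (TGACTCAGC) and the second of 2 promoters of IDH1 (TGACTCCGC), at 201, 137 and 143 bases before the start. The windows of TKT, TALDO1, NQO1, UGDH, OSGIN1 and the first IDH1 promoter held none. NQO1, which had the largest called change among the averaged comparisons of the 9 genes with DMSO, is printed beside the 3 with a match, each on its own strand, with the motif in capitals.
PGD, chr1:10398814-10399063, plus strand: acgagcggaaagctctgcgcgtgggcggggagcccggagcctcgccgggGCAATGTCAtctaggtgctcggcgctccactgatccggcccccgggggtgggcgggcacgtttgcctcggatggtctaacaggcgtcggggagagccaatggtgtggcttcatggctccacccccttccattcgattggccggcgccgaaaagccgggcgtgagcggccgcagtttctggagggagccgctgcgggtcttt
ME1, chr6:83431052-83431301, minus strand: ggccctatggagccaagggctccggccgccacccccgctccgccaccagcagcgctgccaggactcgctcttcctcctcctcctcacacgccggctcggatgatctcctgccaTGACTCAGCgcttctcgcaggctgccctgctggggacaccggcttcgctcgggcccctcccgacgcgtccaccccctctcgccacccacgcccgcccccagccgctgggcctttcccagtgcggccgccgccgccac
IDH1, chr2:208255072-208255321, minus strand: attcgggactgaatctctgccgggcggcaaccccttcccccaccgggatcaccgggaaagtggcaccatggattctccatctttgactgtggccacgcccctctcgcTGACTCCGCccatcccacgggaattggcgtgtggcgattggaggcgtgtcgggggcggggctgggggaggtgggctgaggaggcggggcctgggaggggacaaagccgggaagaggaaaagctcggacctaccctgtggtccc
NQO1, chr16:69726561-69726810, minus strand: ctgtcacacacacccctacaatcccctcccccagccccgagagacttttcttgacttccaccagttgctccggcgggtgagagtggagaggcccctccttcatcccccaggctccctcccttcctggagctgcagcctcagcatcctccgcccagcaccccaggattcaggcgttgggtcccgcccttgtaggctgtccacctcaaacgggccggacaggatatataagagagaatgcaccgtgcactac
A match is a description of these letters and not a binding site. Only the 250 bases of each window were searched, so a window without a match does not show that the gene lacks the motif elsewhere.

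In the ibufenac photocaged arm, 4 of the 9 genes were higher than in DMSO over the 3 times, and none was lower. They were NQO1, ME1, UGDH and PGD, against 4.13% of all tested genes called higher (7.49% called in either direction, adjusted p under 0.05 by edgeR's quasi-likelihood test). The median log2 change of the 9 was 0.18 (all tested genes: median 0.00). In the ibuprofen photocaged arm 1 of the 9 rose, ME1, against 1.98% of all genes called higher (4.28% in either direction). An unadjusted p under 0.05 was found in 6 of the 9, against 3220 of 19352 tested genes. The libraries are bulk, so a change in the number of expressing cells and a change in RNA per cell cannot be told apart.

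NQO1 over the ibufenac photocaged libraries had a lowest, median and highest level of 3.57, 5.39 and 7.74 CPM, against 1.85, 2.9 and 4.47 CPM in DMSO libraries. In all, 8 of the 9 ibufenac photocaged libraries lay above every DMSO library. NQO1 rose by 0.76 ± 0.16 on the log2 scale (SE, n = 9 libraries each, adjusted p = 0.000862, edgeR). With ibuprofen photocaged the lowest, median and highest values of NQO1 were 3.66, 3.88 and 5.04 CPM, with a difference from DMSO of 0.41 ± 0.16 (adjusted p = 0.148). By time, NQO1 had 4.58, 3.57 and 4.62 CPM in ibufenac photocaged cells at 6 h, against 2.51, 2.62 and 4.3 CPM in DMSO cells. At 12 h it had 5.64, 5.49 and 5.39 CPM in ibufenac photocaged cells, against 4.47, 2.9 and 2.9 CPM in DMSO cells. At 18 h it had 6.09, 7.74 and 4.59 CPM in ibufenac photocaged cells, against 1.85, 4.35 and 1.99 CPM in DMSO cells. The 12 h and 18 h groups did not overlap with DMSO, while at 6 h they did, and NQO1's 2 highest group means of all 21 were those of ibufenac photocaged at 18 h and 12 h. The difference passed at 18 h (1.17 ± 0.28, adjusted p = 0.0114) and not at 12 h (0.68 ± 0.27, adjusted p = 0.222) or 6 h (0.43 ± 0.27, adjusted p = 0.502). The 18 h call ended without DMSO 18 h replicate 1 (0.96, adjusted p = 0.0823), DMSO 18 h replicate 3 (0.99, adjusted p = 0.081), ibufenac photocaged 18 h replicate 1 (1.18, adjusted p = 0.0539) or replicate 2 (0.97, adjusted p = 0.0843), and without both libraries named above (0.99, adjusted p = 0.0784), with a range over all its alternatives of 0.000622 to 0.14. With 6 and 12 h alone the averaged change was 0.55 (adjusted p = 0.067, range over its alternatives 4.11e-05 to 0.067). In single-time fits with ibufenac photocaged, 3.03%, 1.58% and 2.86% of all genes were called at 6, 12 and 18 h.

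ME1 was called higher over the 3 times in both photocaged arms. Its lowest, median and highest levels were 15.9, 18.8 and 20.6 CPM in ibufenac photocaged libraries and 16.1, 18.6 and 26.3 CPM in ibuprofen photocaged libraries, against 10.7, 13.9 and 20.1 CPM in DMSO libraries. ME1 rose by 0.36 ± 0.08 with ibufenac (adjusted p = 0.00138) and by 0.41 ± 0.08 with ibuprofen (adjusted p = 0.000603, edgeR, n = 9 each). The photocaged medians lay above the DMSO median, although the highest DMSO library lay inside the range of either arm. At 18 h, ME1 had 18.8, 17.8 and 18.8 CPM in ibufenac photocaged cells and 17.0, 16.8 and 19.6 CPM in ibuprofen photocaged cells, against 11.8, 10.7 and 13.4 CPM in DMSO cells. No photocaged library overlapped with DMSO at that time. The 18 h changes were 0.62 ± 0.14 (adjusted p = 0.00627) for ibufenac and 0.57 ± 0.14 (adjusted p = 0.0184) for ibuprofen. The DMSO mean at 18 h, 12.0 CPM, was the lowest of all 21 groups. Probe cells then averaged 14.3 CPM (ibufenac) and 15.7 CPM (ibuprofen), and bolus cells 13.7 and 12.9 CPM in the same order. At 6 h ME1 averaged 16.9 CPM with ibufenac photocaged and 21.4 CPM with ibuprofen photocaged, against 17.3 CPM in DMSO cells. ME1 also fell with time in the DMSO cells, by 0.53 ± 0.14 at 18 h relative to 6 h (adjusted p = 0.00398), a comparison in which 17.5% of all genes were called. Its DMSO levels were 11.8, 10.7 and 13.4 CPM at 18 h and 20.1, 15.3 and 16.7 CPM at 6 h, so the groups did not overlap. This fall was fitted in the main setting only, with no alternative and no removal of GC trends. The GC slopes of the DMSO libraries were -0.063, 0.081 and 0.067 at 6 h and 0.186, 0.158 and 0.068 at 18 h. The longest ME1 transcript has a GC content of 39.5% (median of tested genes 48.3%). With 6 and 12 h alone, the averaged changes did not pass (0.22, adjusted p = 0.219 for ibufenac, and 0.32, adjusted p = 0.0663 for ibuprofen), within alternatives from 0.000262 to 0.219 and from 4.41e-05 to 0.0663. The ibufenac call at 18 h ended with only the compared arms in the fit (0.63, adjusted p = 0.0871, alternatives from 0.00122 to 0.0871). The ibuprofen call at 18 h ended without DMSO 18 h replicate 1 (0.56, adjusted p = 0.0524), DMSO 18 h replicate 2 (0.50, adjusted p = 0.0661) or ibuprofen photocaged 18 h replicate 3 (0.50, adjusted p = 0.147), with a range over its alternatives of 0.00406 to 0.185. At 12 h ibufenac ME1 rose by 0.49 ± 0.13 (adjusted p = 0.0414), a call that held in 1 of the 6 fits without a library, the one without DMSO 12 h replicate 1. In the other 5 the change was 0.41 to 0.51 and the adjusted p 0.0882 to 0.283, within alternatives from 0.0097 to 0.283.

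PGD rose by 0.15 ± 0.04 in the ibufenac photocaged arm (adjusted p = 0.02) and by 0.16 ± 0.04 in the ibufenac probe arm (adjusted p = 0.00529, edgeR, n = 9 each). Its lowest, median and highest levels were 102, 108 and 117 CPM in ibufenac photocaged libraries and 101, 109 and 125 CPM in ibufenac probe libraries, against 91.6, 97.9 and 106 CPM in DMSO libraries. In turn, 5 and 7 of the 9 libraries of these arms lay above every DMSO library. With ibuprofen the differences were 0.09 ± 0.04 photocaged (adjusted p = 0.285) and 0.10 ± 0.04 as the probe (adjusted p = 0.134). The ibufenac photocaged call ended without DMSO 12 h replicate 2 (0.13, adjusted p = 0.0586) or DMSO 18 h replicate 2 (0.13, adjusted p = 0.0577), and without the low-count filter (adjusted p = 0.0994) or with 6 and 12 h alone (adjusted p = 0.0941), within alternatives that ran from 0.00548 to 0.0994. At 6 h DESeq2 called PGD with ibufenac photocaged (0.22, adjusted p = 0.0389), and edgeR did not (0.20, adjusted p = 0.122). The ibufenac probe call passed in all of its alternatives (adjusted p 0.000585 to 0.0496).

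UGDH over the ibufenac photocaged libraries ran from 15.7 to 27.1 CPM with a median of 18.1 CPM, against 14.2 to 19.4 CPM with a median of 15.6 CPM in DMSO libraries. It rose by 0.28 ± 0.07 (adjusted p = 0.0109, edgeR, n = 9 each), and the limma fits on FPKM gave 0.22 (adjusted p = 0.287) and 0.19 (adjusted p = 0.282), the only alternatives that ended the call (range 0.00439 to 0.287). At 6 h UGDH had 27.1, 22.8 and 25.4 CPM in ibufenac photocaged cells, against 19.2, 19.4 and 15.1 CPM in DMSO cells. These groups did not overlap, and the change was 0.49 ± 0.13 (adjusted p = 0.018). That call ended without DMSO 6 h replicate 3 (0.38, adjusted p = 0.18) or ibufenac photocaged 6 h replicate 1 (0.43, adjusted p = 0.122), within alternatives from 0.00415 to 0.549. At 12 h the ibufenac probe group had 21.5, 19 and 24.7 CPM, against 14.4, 15.6 and 18.5 CPM in DMSO (0.43 ± 0.13, adjusted p = 0.0342), and the call ended without DMSO 12 h replicate 1 (0.35, adjusted p = 0.204), DMSO 12 h replicate 2 (0.41, adjusted p = 0.126), ibufenac probe 12 h replicate 1 (0.44, adjusted p = 0.0727) or ibufenac probe 12 h replicate 3 (0.33, adjusted p = 0.205), within alternatives from 0.0137 to 0.484. The background there was 4.51% of genes called.

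**Figure D1:**
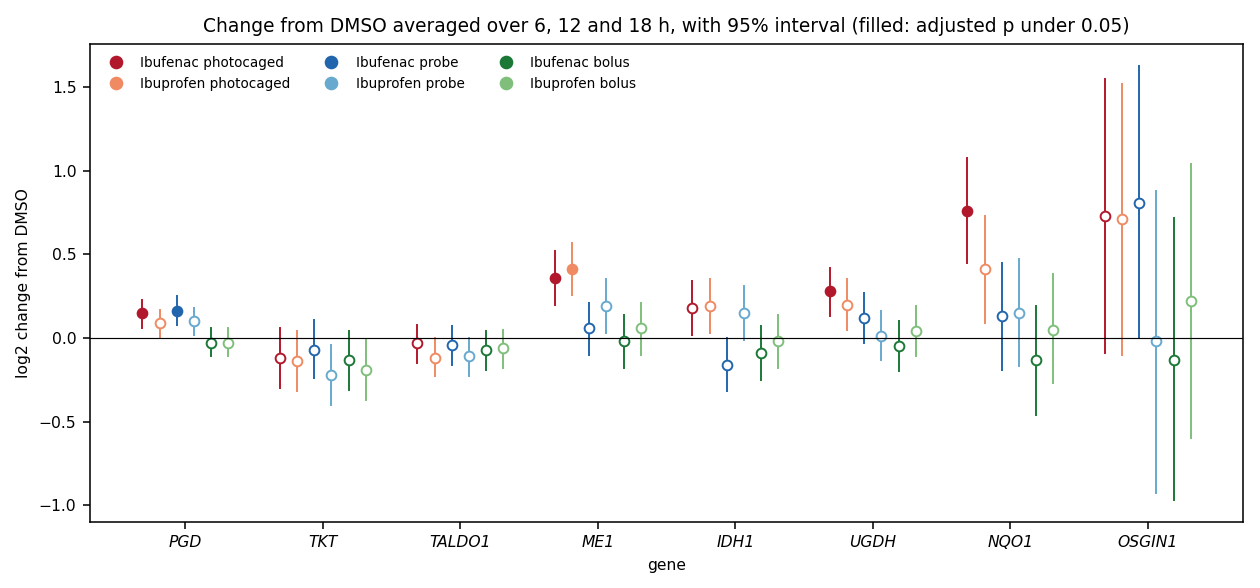
Log2 change from DMSO averaged over 6, 12 and 18 h for 8 genes (AKR1B10, at 0 in many libraries, is left out), with 95% intervals, one colour for each of the 6 drug arms (n = 9 libraries per arm); filled points passed the adjusted threshold of 0.05. Filled points stand for NQO1, ME1, UGDH and PGD in the ibufenac photocaged arm, ME1 in the ibuprofen photocaged arm and PGD in the ibufenac probe arm.

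**Figure D2:**
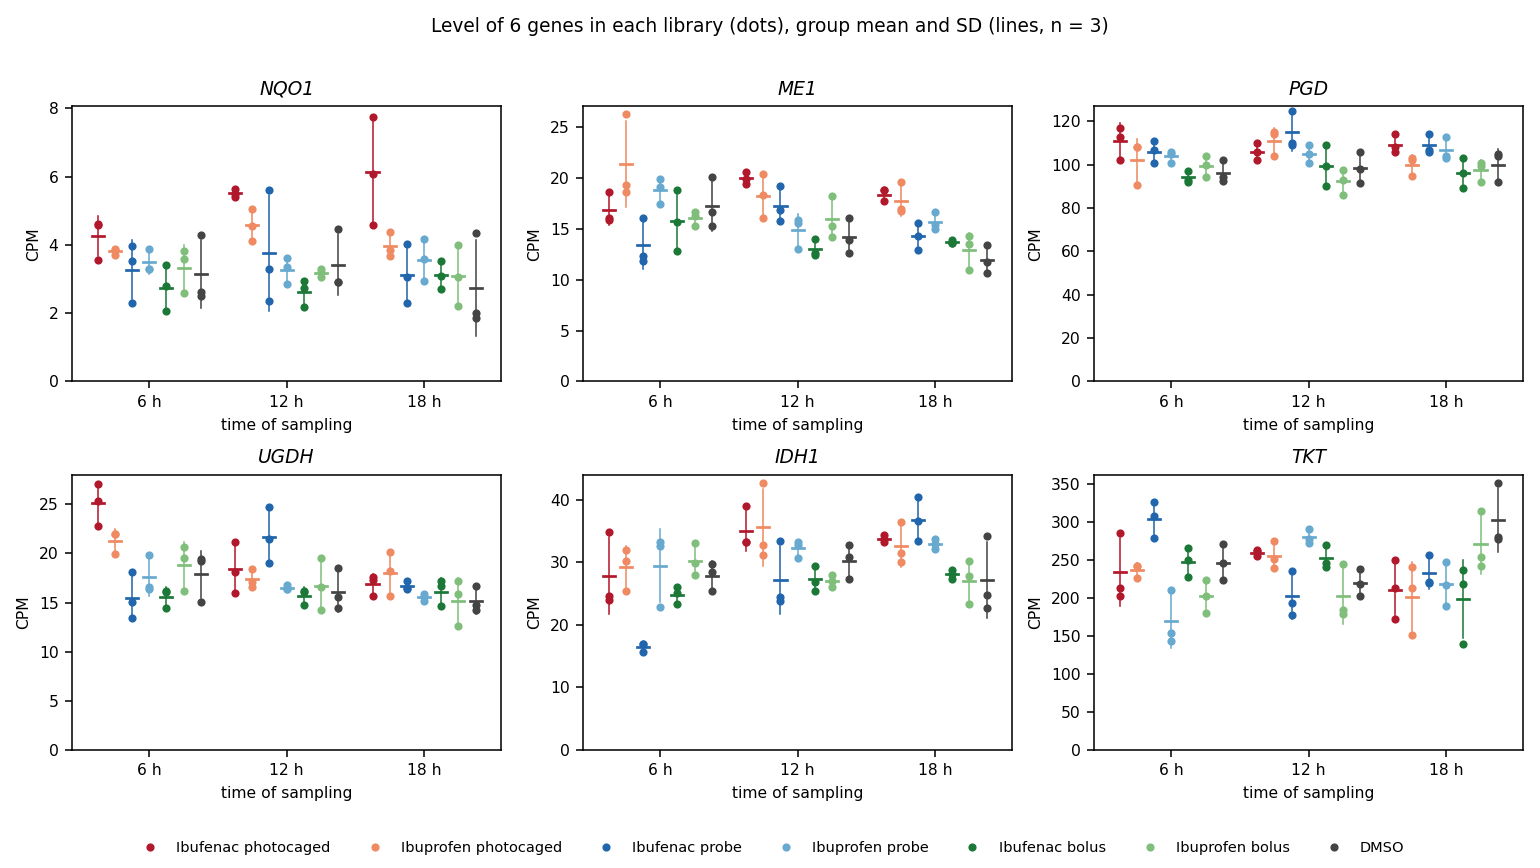
CPM of NQO1, ME1, PGD, UGDH, IDH1 and TKT in every library (dots) at 6, 12 and 18 h, with the mean and SD of each group of 3 (lines). NQO1 is highest in ibufenac photocaged cells at 18 h (6.14 CPM), and IDH1 is lowest in ibufenac probe cells at 6 h (16.5 CPM).

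The 2 enzymes of the non-oxidative pentose phosphate branch, TKT and TALDO1, did not rise with the photocaged drugs in any averaged comparison. At 18 h TKT had 172, 213 and 250 CPM in ibufenac photocaged cells and 241, 214 and 152 CPM in ibuprofen photocaged cells, against 278, 280 and 352 CPM in DMSO cells. Neither group overlapped with DMSO. TKT fell by 0.52 with ibufenac (SE 0.15, adjusted p = 0.0481) and by 0.59 with ibuprofen (SE 0.15, adjusted p = 0.0302, edgeR). TALDO1 had 65.7, 64.5 and 48.2 CPM in ibuprofen photocaged cells at 18 h, against 74.9, 78.8 and 78.7 CPM in DMSO cells, and fell by 0.38 (SE 0.10, adjusted p = 0.0275). In these 18 h comparisons 2.86% of all genes were called for ibufenac and 2.21% for ibuprofen. The GC slopes of these libraries were -0.149, 0.024 and 0.027 with ibufenac photocaged and 0.019, 0.019 and -0.19 with ibuprofen photocaged, against 0.186, 0.158 and 0.068 in DMSO cells, and the transcripts of both genes have a GC content above the median of tested genes. With GC and length trends removed the TKT changes were -0.44 (adjusted p = 0.0279) with ibufenac and -0.51 (adjusted p = 0.0131) with ibuprofen, and the TALDO1 change was -0.30 (adjusted p = 0.0147). DMSO 18 h replicate 3 was the highest of all libraries in TKT, and without it the TKT changes were -0.40 (adjusted p = 0.189) with ibufenac and -0.47 (adjusted p = 0.121) with ibuprofen. Without ibufenac bolus 18 h replicate 3 as well, they were -0.40 (adjusted p = 0.142) and -0.47 (adjusted p = 0.0853). The ibufenac call also ended without DMSO 18 h replicate 1 (-0.58, adjusted p = 0.054), ibufenac photocaged 18 h replicate 1 (-0.39, adjusted p = 0.337) or replicate 2 (-0.53, adjusted p = 0.112), within alternatives from 1.48e-08 to 0.337. The ibuprofen TKT call also ended without ibuprofen photocaged 18 h replicate 2 (-0.63, adjusted p = 0.0543) or replicate 3 (-0.42, adjusted p = 0.308), within alternatives from 9.53e-11 to 0.308, and the TALDO1 call without DMSO 18 h replicate 2 (-0.37, adjusted p = 0.0562), DMSO 18 h replicate 3 (-0.37, adjusted p = 0.0681) or ibuprofen photocaged 18 h replicate 3 (-0.25, adjusted p = 0.325), within alternatives from 0.0028 to 0.325. TKT in the ibufenac bolus at 18 h, with 219, 237 and 140 CPM, fell by 0.61 (SE 0.15, adjusted p = 0.0181, 5.03% of genes called). The GC slopes of the bolus libraries were -0.037, 0.031 and -0.257, and with the trends removed the change was -0.48 (adjusted p = 0.0233). Without ibufenac bolus 18 h replicate 3 the change was -0.41 (adjusted p = 0.272), without DMSO 18 h replicate 3 -0.49 (adjusted p = 0.0829), and without both libraries -0.29 (adjusted p = 0.478, range over its alternatives 2.39e-11 to 0.478).

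In the ibufenac probe arm 1 of the 9 genes was called at 6 h, IDH1, against 12.7% of all genes called. IDH1 had 15.6, 16.9 and 16.9 CPM in ibufenac probe cells, against 29.8, 25.4 and 28.4 CPM in DMSO cells. All 3 probe libraries lay below every DMSO library, and IDH1 fell by 0.76 (SE 0.14, adjusted p = 0.000117, edgeR). It held in every alternative, with adjusted p from 1.52e-06 to 0.00249. At 12 h IDH1 had 24.4, 33.4 and 23.8 CPM in ibufenac probe cells and 27.3, 30.9 and 32.8 CPM in DMSO cells, and at 18 h 33.4, 40.4 and 36.6 CPM in ibufenac probe cells and 22.7, 24.8 and 34.2 CPM in DMSO cells. Those differences were -0.16 ± 0.14 (adjusted p = 0.632) and 0.44 ± 0.14 (adjusted p = 0.0723), with 2.69% of all genes called at 18 h. By DESeq2 the 18 h difference of IDH1 passed (0.44, adjusted p = 0.0456). At 12 h DESeq2 also called PGD in this arm (0.24, adjusted p = 0.0196), which edgeR did not (0.22, adjusted p = 0.0658). The difference from DMSO depended on time for IDH1 and ME1 in this arm (interaction, adjusted p = 0.000162 and 0.0358, 5.69% of all genes), for TKT in the ibuprofen probe arm (adjusted p = 0.0083, 8.52%), and over all 6 drug arms for 5 of the 9 genes, IDH1, TKT, TALDO1, UGDH and ME1 (22.8%). The averaged ibufenac probe comparison called PGD alone, against 13.2% of all genes called and 5.87% called higher. The averaged ibuprofen probe comparison called none of the 9 by edgeR or DESeq2 (8.43% of all genes called). An unadjusted p under 0.05 was found in 3 of the 9, against 4367 of 19352 tested genes.

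At 6 h the ibuprofen probe cells had 154, 144 and 211 CPM of TKT, against 224, 272 and 246 CPM in DMSO cells. The ranges did not overlap, and TKT fell by 0.54 (SE 0.15, adjusted p = 0.0167, edgeR, 11.4% of genes called). TALDO1 had 62.2, 53.4 and 67.1 CPM in ibuprofen probe cells, against 74.4, 73.8 and 77.9 CPM in DMSO cells, and fell by 0.31 (SE 0.10, adjusted p = 0.032). The GC slopes of these libraries were -0.262, -0.274 and -0.12 in ibuprofen probe cells at 6 h and -0.063, 0.081 and 0.067 in DMSO cells at 6 h, and the longest transcripts of TKT and TALDO1 have GC contents of 56% and 56.5% (median of tested genes 48.3%). With GC and length trends removed the TKT change was -0.37 (adjusted p = 0.0479) and the TALDO1 change -0.12 (adjusted p = 0.376). The TKT call ended without DMSO 6 h replicate 2 (-0.47, adjusted p = 0.0985), DMSO 6 h replicate 3 (-0.55, adjusted p = 0.0552), ibuprofen probe 6 h replicate 1 (-0.48, adjusted p = 0.0949) or replicate 2 (-0.44, adjusted p = 0.142), within alternatives from 1.07e-09 to 0.142, and the TALDO1 call ended without each of those same 4 libraries (adjusted p 0.0754 to 0.258, changes -0.22 to -0.33, all alternatives 0.0115 to 0.376).

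**Figure D3:**
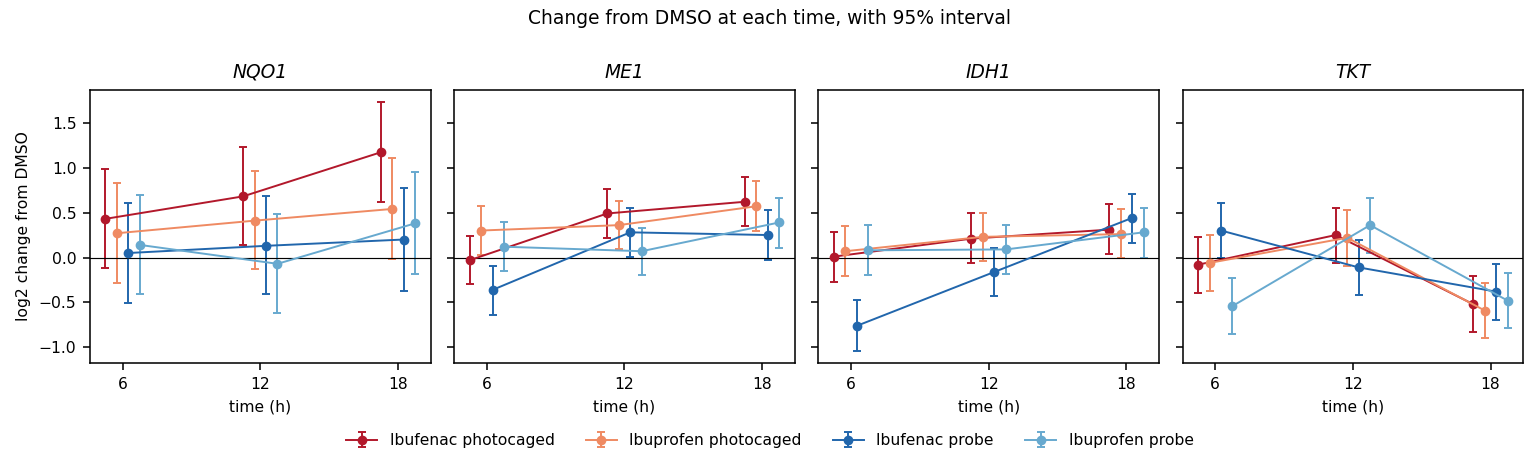
Log2 change from DMSO at 6, 12 and 18 h, with 95% intervals, for NQO1, ME1, IDH1 and TKT in the 4 photocaged and probe arms (3 libraries each). IDH1 in ibufenac probe cells is lower than DMSO at 6 h (-0.76) and not at 18 h (0.44), and NQO1 in ibufenac photocaged cells differs by 1.17 at 18 h.

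The 2 drugs were then set against each other within each form at matched times. In the photocaged form no gene of the 9 differed over the 3 times, by edgeR or DESeq2, against 0.0362% of all genes called. An unadjusted p under 0.05 was found in 1 of the 9, against 921 of 19352 tested genes. For NQO1 the ibufenac minus ibuprofen difference was 0.35 (95% interval 0.04 to 0.67, adjusted p = 1), with means of 5.3 ± 1.2 CPM for ibufenac and 4.12 ± 0.46 CPM for ibuprofen (SD, n = 9 each). At 18 h it was 0.63 (95% interval 0.09 to 1.17, adjusted p = 1) and the ranges did not overlap. For ME1, PGD and UGDH the averaged differences were -0.05 (-0.21 to 0.10), 0.06 (-0.02 to 0.14) and 0.07 (-0.07 to 0.22). A p that misses the threshold does not show that the drugs act alike. In the probe form 1 of the 9 differed over the 3 times, against 1.69% of all genes called lower and 2.82% in either direction: IDH1 was lower with ibufenac, by 0.31 (SE 0.08, adjusted p = 0.0192). Its lowest, median and highest levels were 15.6, 24.4 and 40.4 CPM in ibufenac probe libraries, against 22.8, 32.8 and 33.7 CPM in ibuprofen probe libraries. The averaged difference did not hold one direction over time: it was -0.84 at 6 h, -0.25 at 12 h (95% interval -0.52 to 0.02, adjusted p = 0.352) and 0.16 at 18 h (-0.11 to 0.43, adjusted p = 0.957). At 18 h IDH1 averaged 36.8 ± 3.5 CPM in ibufenac probe cells and 33.0 ± 0.75 CPM in ibuprofen probe cells (SD, n = 3 each), with overlapping ranges. Whether this difference between the drugs depended on time was not tested. That call ended without ibuprofen probe 6 h replicate 1 (-0.28, adjusted p = 0.0626), ibufenac probe 12 h replicate 3 (-0.28, adjusted p = 0.0564) or ibufenac probe 18 h replicate 1 (-0.29, adjusted p = 0.0565), and on the limma scales (adjusted p = 0.0631 and 0.0761), with a range over its alternatives of 0.00113 to 0.0761.

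At 6 h the probe forms differed in 4 of the 9 genes, against 23.6% of all genes called. IDH1 had 15.6, 16.9 and 16.9 CPM with ibufenac, against 33.2, 22.8 and 32.6 CPM with ibuprofen, and TKT had 279, 309 and 327 CPM with ibufenac, against 154, 144 and 211 CPM with ibuprofen. Neither gene's groups overlapped. The ibufenac minus ibuprofen difference of IDH1 was -0.84 (95% interval -1.12 to -0.55, adjusted p = 2.99e-05, edgeR) and that of TKT 0.85 (0.53 to 1.16, adjusted p = 7.12e-05). Both held in every alternative, up to adjusted p = 0.00214 for IDH1 and 0.00245 for TKT, and with GC and length trends removed they were -0.66 and 0.69. ME1 was lower with ibufenac (-0.48, adjusted p = 0.00617), with 16.1, 11.9 and 12.3 CPM in ibufenac probe cells, against 19.9, 17.5 and 19.1 CPM in ibuprofen probe cells. TALDO1 was higher with ibufenac (0.27, adjusted p = 0.0394). The GC slopes of the ibufenac probe libraries at 6 h were 0.063, 0.148 and 0.167, on the other side from those of ibuprofen given above, and with the trends removed ME1 differed by -0.28 (adjusted p = 0.136) and TALDO1 by 0.08 (adjusted p = 0.555). Without ibufenac probe 6 h replicate 2 the ME1 call ended (-0.40, adjusted p = 0.0537, range over its alternatives 0.00138 to 0.136). The TALDO1 call held in 1 of 6 fits without a library and ended without ibuprofen probe 6 h replicates 1 or 2 or any ibufenac probe 6 h library (0.18 to 0.29, adjusted p 0.0504 to 0.27, within alternatives from 0.0161 to 0.555). At 12 h none of the 9 passed by edgeR and 1 by DESeq2, UGDH (0.42, adjusted p = 0.0283, against 0.40 and adjusted p = 0.0772 by edgeR), with 1.92% of all genes called. An unadjusted p under 0.05 was found in 3 of the 9, against 3315 of 19352 tested genes. At 18 h none passed by either tool (0% called), and 0 had an unadjusted p under 0.05, against 1065 of 19352 tested genes. TKT at 12 h lay the other way round, with 194, 178 and 236 CPM in ibufenac probe cells and 278, 291 and 273 CPM in ibuprofen probe cells (-0.47, 95% interval -0.78 to -0.16, adjusted p = 0.0874). The GC slopes at 12 h were -0.088, -0.177 and 0.046 with the ibufenac probe and 0.104, 0.136 and 0.074 with the ibuprofen probe. The 12 h TKT difference with GC trends removed is not given here.

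Probe and photocaged forms of the same drug were compared next. For ibufenac 3 of the 9 were lower as the probe over the 3 times, against 1.83% of all genes called lower (2.68% in either direction). NQO1 fell by 0.64 (SE 0.16, adjusted p = 0.0156), with a median of 3.29 CPM in probe libraries, against 5.39 CPM in photocaged libraries. IDH1 fell by 0.34 (SE 0.08, adjusted p = 0.01) and ME1 by 0.30 (SE 0.08, adjusted p = 0.02, edgeR). By time the IDH1 difference was -0.76 at 6 h, -0.37 at 12 h (adjusted p = 0.122) and 0.12 at 18 h (95% interval -0.15 to 0.39, adjusted p = 0.964), when IDH1 averaged 36.8 ± 3.5 CPM in probe cells and 33.8 ± 0.58 CPM in photocaged cells (SD, n = 3 each). That of ME1 was below 0 at each time (-0.33, -0.21 and -0.37), with no single time passing. The IDH1 call ended without ibufenac photocaged 6 h replicate 1 (-0.27, adjusted p = 0.0569) or with only the compared arms (adjusted p = 0.0503, range over its alternatives 0.000953 to 0.0569). The ME1 call ended without that library (-0.28, adjusted p = 0.0635), ibufenac probe 6 h replicate 2 (-0.28, adjusted p = 0.056) or ibufenac probe 18 h replicate 3 (-0.28, adjusted p = 0.0527). It also ended without the low-count filter (adjusted p = 0.0529) and with 6 and 12 h alone (-0.26, adjusted p = 0.155), with a range over its alternatives of 0.00692 to 0.155. The call of NQO1 ended with 6 and 12 h alone (-0.46, adjusted p = 0.17) or with only the compared arms (adjusted p = 0.0729), within alternatives from 0.00314 to 0.17. At 6 h IDH1 fell by 0.76 (SE 0.14, adjusted p = 0.000351) and UGDH by 0.69 (SE 0.13, adjusted p = 0.000332), against 7.38% of genes called. Both ended only with the compared arms alone in the fit (adjusted p = 0.104 for IDH1 and 0.105 for UGDH, the highest of their alternatives, and 1.79e-06 and 2.62e-05 the lowest). UGDH had 18.1, 15.1 and 13.4 CPM in probe cells, against 27.1, 22.8 and 25.4 CPM in photocaged cells, without overlap. For ibuprofen none of the 9 differed between the forms by edgeR or DESeq2 over the 3 times, with 0.0982% of all genes called. An unadjusted p under 0.05 was found in 2 of the 9, against 1817 of 19352 tested genes.

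With the ibuprofen bolus 0 of 9 passed over the 3 times by edgeR and by DESeq2, against 0.0258% of all genes called. An unadjusted p under 0.05 was found in 1 of the 9, against 2035 of 19352 tested genes. With the ibufenac bolus 0 of 9 passed over the 3 times by either tool, against 0.0103% of all genes called. At an unadjusted p under 0.05 there were 0 of the 9, against 1688 of 19352 tested genes. The bolus forms of both drugs also called none against each other by either tool (0% of all genes called). In that comparison 1 of the 9 had an unadjusted p under 0.05, against 1342 of 19352 tested genes. NQO1 averaged 2.82 ± 0.50 CPM with the ibufenac bolus and 3.2 ± 0.57 CPM with the ibuprofen bolus, against 3.1 ± 1.0 CPM in DMSO (SD, n = 9 each). The 95% intervals of the NQO1 change were -0.46 to 0.19 with the ibufenac bolus and -0.27 to 0.38 with the ibuprofen bolus.

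The 2 low genes gave little. OSGIN1 had 2 to 36 counts in a library, with 6 libraries at 3 counts or fewer, and passed in no comparison. Its lowest, median and highest levels were 0.132, 0.925 and 2.11 CPM in ibufenac photocaged libraries, 0.161, 0.924 and 2.02 CPM in ibufenac probe libraries and 0.312, 0.888 and 1.47 CPM in ibuprofen photocaged libraries, against 0.123, 0.449 and 1.57 CPM in DMSO libraries. The averaged ibufenac photocaged change was 0.73 with a 95% interval of -0.09 to 1.55 (adjusted p = 0.325). Counts of OSGIN1 differed widely within groups, such as 5, 33 and 23 in the DMSO libraries at 6 h. AKR1B10 was at 0 counts in 26 of 63 libraries and at 3 or fewer in 45, and no fold is given for it. At 18 h all 18 libraries of the 6 drug arms held AKR1B10 reads (2 to 23 counts), against 1 of 3 DMSO libraries (0 to 3 counts). At 6 h 4 of the 18 drug libraries held any (0 to 4 counts), against 2 of 3 DMSO libraries (0 to 5 counts). None of its comparisons passed.

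**Figure D4:**
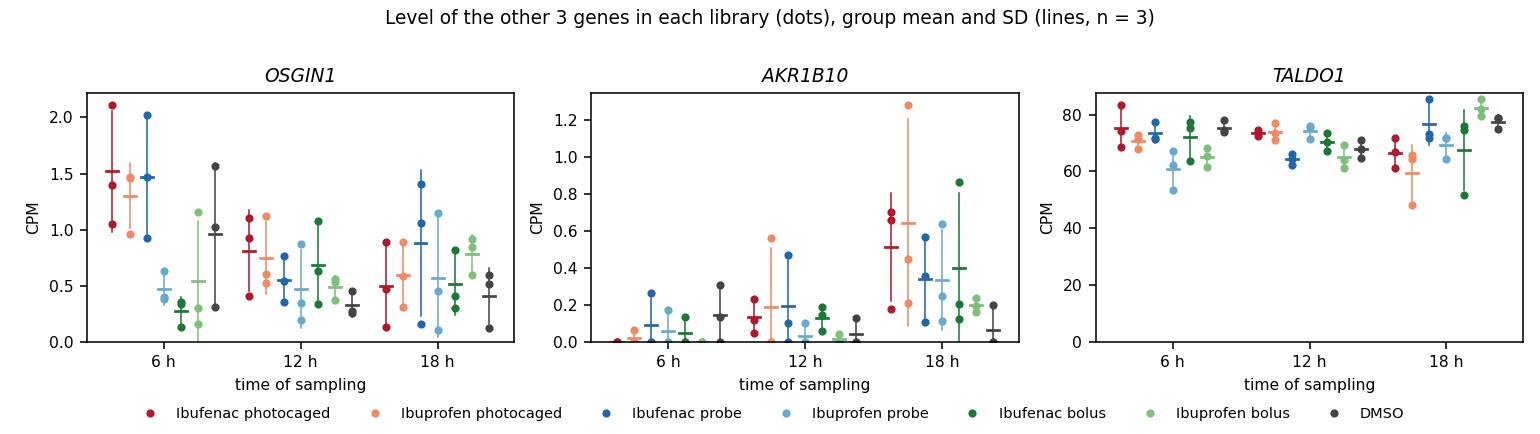
CPM of OSGIN1, AKR1B10 and TALDO1 in every library (dots) at 6, 12 and 18 h, with the mean and SD of each group of 3 (lines). OSGIN1 and AKR1B10 stay at or under 2.11 and 1.28 CPM in all libraries, and TALDO1 in ibuprofen photocaged cells at 18 h (59.4 CPM) is below DMSO (77.5 CPM).

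Other genes of the same pathways were read from lists, which were also chosen with earlier results of these data known. Beside each count stands the share of all tested genes called in either direction, which was 7.49% for ibufenac photocaged, 4.28% for ibuprofen photocaged, 13.2% for the ibufenac probe and 8.43% for the ibuprofen probe. Of 14 further genes of NADPH supply, all tested, 3 rose and 0 fell in the ibufenac photocaged arm (4.13% of all genes called higher) and 2 rose and 0 fell in the ibuprofen photocaged arm (1.98% higher). In the ibufenac probe arm 5 rose and 0 fell (13.2% called, 5.87% higher), and in the ibuprofen probe arm 3 rose and 1 fell (8.43% called). ALDH1L2, a mitochondrial folate enzyme that yields NADPH, rose by 0.57 ± 0.09 with ibufenac photocaged (adjusted p = 5.96e-06), by 0.51 ± 0.09 with ibuprofen photocaged (adjusted p = 0.000148), by 0.87 ± 0.09 with the ibufenac probe and by 0.58 ± 0.09 with the ibuprofen probe. It averaged 53.6 ± 12 CPM in ibufenac probe libraries, against 29.2 ± 3.5 CPM in DMSO libraries (SD, n = 9 each). NADK2, the mitochondrial NAD kinase, rose in these same 4 arms, by 0.31 ± 0.06 with ibufenac photocaged (adjusted p = 0.000117) and by 0.24 ± 0.06 with ibuprofen photocaged (adjusted p = 0.00646). H6PD, which supplies NADPH in the endoplasmic reticulum, rose by 0.31 ± 0.06 with ibufenac photocaged (adjusted p = 0.000446), 0.59 ± 0.06 with the ibufenac probe and 0.38 ± 0.06 with the ibuprofen probe. PGLS, the lactonase of the oxidative branch, rose by 0.34 ± 0.10 with the ibufenac probe. NADK, the cytosolic NAD kinase, fell by 0.28 with the ibuprofen probe (SE 0.08, adjusted p = 0.0224), to 50.8 ± 7.6 CPM, against 61.4 ± 5.4 CPM in DMSO libraries.

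Of 21 further reductases 16 were tested. In the ibufenac photocaged arm 2 of the 16 rose (7.49% of all genes called), in the ibuprofen photocaged arm 1 rose (4.28%) and in the ibufenac probe arm 2 rose and 2 fell (13.2%). With the ibuprofen probe 0 of the 16 passed by edgeR or DESeq2 (8.43% of all genes called). An unadjusted p under 0.05 was found in 4 of the 16, against 4367 of 19352 tested genes. TXNRD1, thioredoxin reductase, rose by 0.56 ± 0.04 in the ibufenac photocaged arm (219 ± 62 CPM, against 146 ± 27 CPM in DMSO), by 0.32 ± 0.04 in the ibuprofen photocaged arm and by 0.12 ± 0.04 in the ibufenac probe arm. NQO2, a quinone reductase related to NQO1, rose by 0.23 ± 0.07 in the ibufenac photocaged arm (adjusted p = 0.0218), and AKR1A1, an aldehyde reductase, by 0.20 ± 0.06 in the ibufenac probe arm (adjusted p = 0.0248). CBR1, a carbonyl reductase, and AKR1B1, aldose reductase, fell by 0.25 and 0.21 in the ibufenac probe arm. AKR1C1, AKR1C2, AKR1C3, AKR1B15 and PTGR1 were too low to be tested. Of 8 genes around UDP-glucuronate 5 were tested. SLC35D1, a transporter of UDP-sugars, was the 1 gene of these called in each of 3 arms, and rose by 0.20 ± 0.05 in either photocaged arm and by 0.15 ± 0.05 in the ibuprofen probe arm (adjusted p = 0.047). Of all genes 7.49%, 4.28% and 8.43% were called in the ibufenac photocaged, ibuprofen photocaged and ibuprofen probe arms. With the ibufenac probe 0 of the 5 passed by edgeR (13.2% of all genes called). By DESeq2 2 of the 5 passed, and its share of all genes is not given here. An unadjusted p under 0.05 was found in 2 of the 5, against 4908 of 19352 tested genes. UGT1A1, UGT1A6 and UGT2B7, which form glucuronides in liver, were not tested at 0.00731 CPM or less.

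Of 8 NRF2 targets or regulators, 3 rose and 0 fell in both photocaged arms, HMOX1, GCLM and SLC7A11, against 4.13% of all genes called higher with ibufenac and 1.98% with ibuprofen. HMOX1 rose by 0.87 ± 0.09 with ibufenac and 0.64 ± 0.09 with ibuprofen. GCLM, a subunit of the enzyme that starts glutathione synthesis, rose by 0.64 ± 0.06 with ibufenac and 0.51 ± 0.06 with ibuprofen, and SLC7A11, the cystine importer, by 0.60 ± 0.06 and 0.33 ± 0.06 in the same order. In the ibufenac probe arm SLC7A11 and GCLM rose and SRXN1 fell by 0.20 (13.2% of all genes called), and in the ibuprofen probe arm SLC7A11 and GCLM rose and HMOX1 fell by 0.32 (8.43%). In the bolus arms 0 genes of the 4 lists passed by edgeR over the 3 times, against 0.0103% of all genes for ibufenac and 0.0258% for ibuprofen. DESeq2 called 1 NADPH supply gene with the ibuprofen bolus and 0 otherwise, and its share of all genes is not given here. The NADPH supply, reductase, UDP-glucuronate and NRF2 lists held 2, 3, 0 and 2 genes at an unadjusted p under 0.05 with the ibufenac bolus and 2, 1, 0 and 3 with the ibuprofen bolus. Of all 19352 tested genes, 1688 had such a p with the ibufenac bolus and 2035 with the ibuprofen bolus. At single times 3 list genes passed by edgeR, all with the ibufenac bolus at 18 h (5.03% of all genes called), and they are named after their values were seen. NADK2 rose by 0.40 ± 0.10 (adjusted p = 0.0125), AKR7A2, an aldo-keto reductase, fell by 0.55 (SE 0.11, adjusted p = 0.00425), and MAFG, a small MAF partner of NRF2, fell by 0.42 (SE 0.11, adjusted p = 0.0181). Without ibufenac bolus 18 h replicate 3 none of them passed (adjusted p = 0.146 for NADK2, 0.123 for AKR7A2 and 0.224 for MAFG), nor did any without it and DMSO 18 h replicate 3 together (0.146, 0.179 and 0.249), and without DMSO 18 h replicate 1 NADK2 (adjusted p = 0.0724) and MAFG (adjusted p = 0.0717) did not. With only the compared arms the 3 adjusted p were 0.251, 0.251 and 0.25, in the same order. With GC and length trends removed the changes were 0.26 (adjusted p = 0.143), -0.20 (adjusted p = 0.274) and -0.23 (adjusted p = 0.0485), and the limma fits ended MAFG (adjusted p = 0.0546 and 0.0562). The lists' median changes in the ibufenac photocaged arm were 0.07, 0.13, -0.01 and 0.16 in the same order (all tested genes: median 0.00).

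Over the 21 group means, after subtracting the mean of the arms at each time, TKT and TALDO1 ran together (Pearson r = 0.84, n = 21 groups), as did ME1 and NQO1 (r = 0.80) and ME1 and IDH1 (r = 0.66), while TKT ran against ME1 (r = -0.47). The genes whose pattern lay closest were FKBP8 for TKT (r = 0.98), H2AC11, a histone, for TALDO1 (0.95), FBXO32 for NQO1 (0.92) and RALGPS2 for IDH1 (0.89). The closest were TTLL7 for UGDH (0.88), RHOBTB3 for PGD (0.87) and HEATR5A for ME1 (0.85). The groups share libraries and library GC slopes, so these values are a description.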

How the data were processed

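Total RNA was depleted of ribosomal RNA and made into stranded libraries, per the labels. The authors deposited expected counts, not normalized, for 58336 Ensembl genes, and a matching deposited table of FPKM, scaled to length and depth. For the aligner, counting program, strand setting and build, nothing is stated in the labels or file headers. Counts were rounded, since 22.6% of values of 1 or more were not whole. FPKM served for levels between genes and, as log2(FPKM + 0.1) and log2(FPKM + 1), for limma. Current symbols were found for 57754 IDs and GENCODE 29 symbols for 462, while 120 had no symbol.

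After filterByExpr (minimum count 10) 19352 genes remained, with all 9 among them. A quasi-likelihood model over the 21 groups was fitted with edgeR 4.0.16 (R 4.3.3), with TMM factors of 0.91 to 1.11, 42 residual degrees of freedom and a coefficient of biological variation of 0.159. P-values were two-sided and adjusted by Benjamini-Hochberg over all tested genes within each of 46 comparisons, at 0.05. Changes are log2 with standard error, and intervals are 95%. The named genes are all 9 members, up to 4 called genes per list and averaged comparison, and the 3 nearest patterns among genes of at least 5 CPM. The members and lists were chosen with earlier results of these data known. Alternatives were RLE factors, DESeq2 1.42.0, a replicate block, no low-count filter, limma 3.58.1, only the compared arms, 6 and 12 h only, leaving out the 2 libraries named in the report and leaving out each of 63 libraries in turn. Removal of GC and length trends was chosen after seeing the data. The fits were tested on simulated data for the averaged ibufenac photocaged comparison, where edgeR found 99% of planted 1.5-fold and 100% of planted 2-fold changes among 17664 genes. Changes were planted only in well-counted genes, with a single fixed spread and no GC slopes or time effects. The simulation therefore does not cover OSGIN1, AKR1B10, single-time tests or changes under 1.5-fold, and its false calls are not given here. Depth was 12.1 to 38.4 M counts a library, and none of 63 replicate pairs agreed within sampling noise (lowest chi-square per degree of freedom 4.84).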

Additional observations from a re-analysis of the deposited data

Results flagged for a closer look

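The change from DMSO depended on time for some genes, by the arm by time interaction of the quasi-likelihood fit. In the ibufenac probe arm this held for IDH1 (adjusted p = 0.000162), which was lower than DMSO at 6 h (-0.76) and not at 18 h (0.44), and for ME1 (adjusted p = 0.0358), whose changes were -0.36, 0.28 and 0.25 at 6, 12 and 18 h. In the ibuprofen probe arm it held for TKT (adjusted p = 0.0083), with changes of -0.54, 0.36 and -0.48. The share of all tested genes with such an interaction was 5.69% in the ibufenac probe arm and 8.52% in the ibuprofen probe arm. Over all 6 drug arms together, where 22.8% of genes passed, it held for IDH1 (adjusted p = 0.000543), TKT (adjusted p = 0.000155), TALDO1 (adjusted p = 0.00176), UGDH (adjusted p = 0.0108) and ME1 (adjusted p = 0.0263).

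With GC and length trends removed, ME1 no longer passed, in the ibufenac probe arm (adjusted p = 0.0625) or over all arms (adjusted p = 0.0789). The ibufenac probe result of ME1 had adjusted p from 0.0101 to 0.185 over its alternatives and ended in 9 of 18 fits without a library. Those were the fits without DMSO 6 h replicates 1 (0.185) or 3 (0.0534), DMSO 12 h replicates 2 (0.063) or 3 (0.0522), DMSO 18 h replicate 2 (0.0531), ibufenac probe 6 h replicates 2 (0.141) or 3 (0.142), ibufenac probe 12 h replicate 1 (0.0619) or ibufenac probe 18 h replicate 2 (0.062). Over all arms ME1 ended without ibufenac probe 6 h replicate 2 (adjusted p = 0.0646) or ibufenac probe 12 h replicate 1 (adjusted p = 0.0514), within alternatives from 0.00597 to 0.194. Without the low-count filter ME1 passed neither in the ibufenac probe arm (adjusted p = 0.132) nor over all arms (adjusted p = 0.194), and UGDH over all arms did not pass (adjusted p = 0.0806, range over its alternatives 0.00546 to 0.0806). The interactions of IDH1, TKT and TALDO1 given above passed in all alternatives run.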

How the results depend on the processing

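The number of the 9 genes called in an averaged comparison changed by more than 1.5 times as follows. With 6 and 12 h only it was 0 for ibuprofen photocaged (1 over all times), 1 for ibufenac photocaged (4), 2 for ibufenac probe (1), 1 for the ibufenac minus ibuprofen bolus difference (0) and 1 for ibufenac probe minus photocaged (3). Without the low-count filter it was 1 for the ibuprofen bolus (0), 1 for the ibuprofen probe (0) and 2 for the ibufenac minus ibuprofen probe difference (1). Of all genes that setting called 436 of 36130 for the ibuprofen bolus, 1971 for the ibuprofen probe and 1291 for the probe difference. The main fit called 5, 1631 and 546 of 19352, in the same order. Shares of all genes under the other settings are not given here, so these counts do not set the 9 genes apart. With only the compared arms the number of the 9 called was 1 for the ibuprofen probe (0) and 1 for ibufenac probe minus photocaged (3). With limma on either FPKM scale it was 0 for the ibufenac minus ibuprofen probe difference (1). Leaving out one library gave 1 to 2 for ibuprofen photocaged (2 without DMSO 18 h replicate 2), 3 to 5 for ibufenac photocaged, 0 to 1 for the ibuprofen probe (1 without ibuprofen probe 6 h replicate 3), 0 to 1 for the ibufenac minus ibuprofen probe difference (0 without the 3 libraries the report names, each in turn) and 1 to 3 for ibufenac probe minus photocaged (1 without ibufenac photocaged 6 h replicate 1). Among single-time calls, the fit with only the compared arms also ended UGDH at 6 h and NQO1 and TKT at 18 h with ibufenac photocaged, ME1, TKT and TALDO1 at 18 h with ibuprofen photocaged, UGDH at 12 h with the ibufenac probe and TKT at 18 h with the ibufenac bolus. The limma fits ended both UGDH calls against DMSO, ME1 at 12 h and TKT at 18 h with ibufenac photocaged, TALDO1 at 18 h with ibuprofen photocaged and TALDO1 between the probes at 6 h, and the fit without the low-count filter ended both UGDH calls. No direction of a called change reversed in any alternative. RLE factors, DESeq2, the replicate block and the removal of GC and length trends changed none of the averaged counts, and leaving out DMSO 18 h replicate 3 and ibufenac bolus 18 h replicate 3 together gave 5 for ibufenac photocaged (4) and changed no other. Deviations of each drug library were correlated with those of the DMSO library of the same time and replicate number. Of 54 such correlations 0 exceeded 0.1 (median 0.01), and 23 were the highest of the 3 with that time's DMSO libraries. Drug arms were not compared with each other, so whether replicate numbers pair the libraries is not settled. The fit with the replicate block called 4 of the 9 in the ibufenac photocaged arm and 1 in the ibufenac probe arm (1445 and 2565 of 19352 tested genes). AKR1B10, at 3 counts or fewer in 45 of 63 libraries, is limited by depth. The causes of these shifts were not tested.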
